A study of Mus musculus with 9 samples.

Results

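Thymus labelled as carrying an Lmo2 transgene was compared with wild-type thymus on 3 arrays a side. The 6 arrays were chosen by their labels from the 9 of the series, the other 3 being Lmo2 leukaemia cell lines. All mice were of strain C57BL/6, and the labels state no age, sex, transgene promoter or pooling of animals. Values below follow the replicate numbers of the labels, as arrays 1, 2 and 3 of each group. Different numbers need not mean different animals, so the p-values measure the spread between these samples, which may be partly technical.

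LMO2 is a nuclear adaptor protein that does not bind DNA itself and joins GATA factors and basic helix-loop-helix factors such as TAL1 and LYL1 through LDB1. Blood stem and progenitor cells use it, and commitment to the T lineage in the thymus normally shuts it down. Forced expression of LMO2 in thymocytes is a known cause of T cell leukaemia in people and mice, and HHEX, LYL1 and NFE2 are progenitor genes long associated with it.

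Expression was read on Illumina MouseWG-6 v2.0 bead arrays, on which each probe gives an intensity and a detection p-value against background. Of 45281 probes, 18382 had a detection p-value under 0.05 on at least 3 of the 6 thymus arrays and were tested, including 2977 without a single gene symbol. The named probes stand for 9578 genes, each read by its probe with the highest mean. Levels are normalized log2 intensities, on which undetected probes mostly lie between 4 and 5, and differences are labelled transgenic minus wild type with their standard error from limma. A gene was called changed where limma's Benjamini-Hochberg adjusted p over all probes was under 0.05, and rose, fell and changed are used of such calls alone.

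The Lmo2 probe itself went against the labels. It gave 6.95, 6.22 and 5.42 on the labelled transgenic arrays, against 7.95 to 8.21 on the 3 wild-type arrays. Every labelled transgenic value lay below every wild-type value, with a difference of -1.86 ± 0.37 that missed the call (limma, adjusted p = 0.0527). Whether this probe can read the transgene was not analysed here, so every direction below is that of the arrays labelled transgenic.

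T cell genes were high on both sides, and the defining genes of the main thymocyte stages were only partly readable. Dntt, the terminal transferase of cells that rearrange their receptors, had 12.36, 12.64 and 12.36 on the labelled transgenic arrays, against 11.90, 12.38 and 12.13 on the wild-type arrays. Cd3e, a chain of the T cell receptor complex, had 13.32, 13.40 and 13.22 on the labelled transgenic arrays, against 13.25, 13.24 and 13.36 on the wild-type arrays. Cd8a was not detected by either of its probes on any of the 6 arrays, and Cd4 was detected by 1 of its 2 probes on 1 labelled transgenic and 1 wild-type array. The 3 probes of Cd8b1 disagreed, with 2 of them called lower in labelled transgenic thymus (-3.21 and -2.61, limma, adjusted p = 0.000829 and 0.012) and the third at 0.24 ± 0.45 and not called. Lck has no named probe here.

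The labelled transgenic arrays were less alike than the wild-type arrays. Their pairwise correlations over the tested probes were 0.920, 0.962 and 0.918, against 0.970, 0.971 and 0.990 among wild-type arrays. The median standard deviation of a probe was 0.348 among labelled transgenic arrays and 0.227 among wild-type arrays, and it was larger in the labelled transgenic group for 69.7% of probes. Array 2 stood farthest apart, with 139 genes more than 1 log2 unit above and 201 more than 1 below all 5 other thymus arrays. Labelled transgenic array 3 had 32 above and 95 below, and array 1 had 43 above and 16 below. The wild-type arrays had 24 above and 9 below on array 1, 0 above and 2 below on array 2, and 0 of either on array 3.

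**Figure D1:**
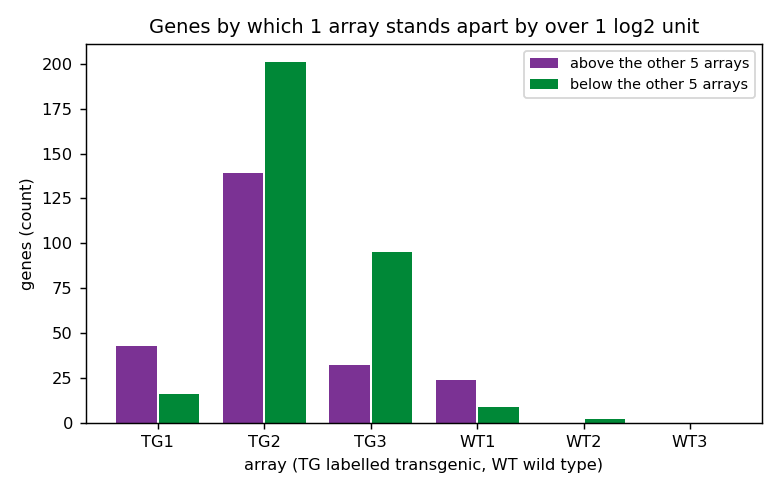
Number of genes (vertical axis) for which 1 thymus array (horizontal axis) lies more than 1 log2 unit above or below each of the other 5. Labelled transgenic array 2 has the tallest bars, with 139 genes above and 201 below, and wild-type array 3 has 0 of either.

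Sex-linked transcripts also split the labelled transgenic arrays. Xist, the RNA that silences 1 X chromosome in females, had 12.66, 11.37 and 4.49 by its brightest probe on the labelled transgenic arrays, against 4.38, 4.47 and 4.45 on the wild-type arrays. The Y-linked gene Eif2s3y ran the other way, with 4.35, 4.48 and 10.12 on the labelled transgenic arrays, against 9.44, 9.96 and 9.96 on the wild-type arrays. Labelled transgenic arrays 1 and 2 thus carried Xist signal, and array 3 and all wild-type arrays carried Y-linked signal. A term for Xist signal in the fit, added after seeing the data, left labelled transgenic array 3 alone to set against the wild-type arrays. That fit rests on 1 labelled transgenic array, so its counts of calls are not given.

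Across the whole array, 342 of 9578 genes were called, which is 3.57% of those tested, with 171 higher and 171 lower (1.79% each). Over probes the count was 550 of 18382 (2.99%), with 265 higher (1.44%) and 285 lower (1.55%). The increases ran farther than the decreases: 36 genes rose by at least 3 log2 units and 10 fell by as much, and 15 rose and 2 fell by at least 4. The median of the called differences was 2.00 among genes that rose and -1.78 among genes that fell, against 0.00 over all genes.

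In all 342 called genes the 3 labelled transgenic values lay wholly above or wholly below the 3 wild-type values. Such a separation was common, at 22.8% of all genes tested. Without 1 of the wild-type arrays the count of called genes dropped to 102, 71 or 70 (array 1, 2 or 3 left out), and without 1 of the labelled transgenic arrays it was 401, 349 or 320. An unadjusted p under 0.05 was reached by 1503 genes.

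**Figure D2:**
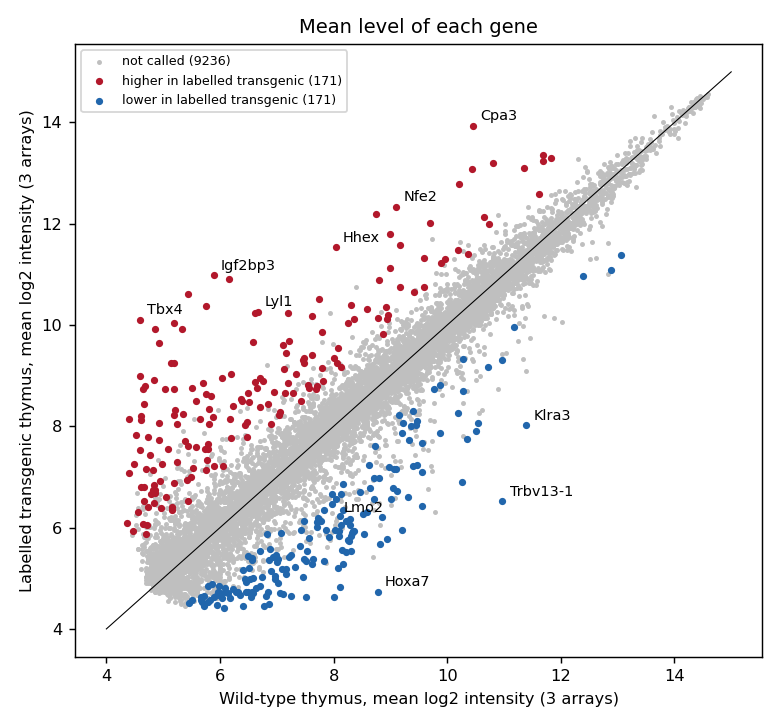
Mean log2 intensity of each of the 9578 genes over the 3 labelled transgenic arrays (vertical axis) and the 3 wild-type arrays (horizontal axis), with the line of equal level. Red points are the 171 genes called higher and blue points the 171 called lower in labelled transgenic thymus. Many of the largest increases start from wild-type levels of 4 to 6, near background.

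Some of these genes passed the detection filter through 1 group alone and so had to differ. The counts given below for lists and families include such genes. Of the 171 genes that rose, 28 (16.4%) were not detected on any wild-type array and 119 were detected on all 3. Of the 171 that fell, 39 (22.8%) were not detected on any labelled transgenic array and 93 were detected on all 3. For a gene not detected in 1 group, the size is given below as "at least", the detected group's mean set against the lowest signal of detected probes on the other group's arrays.

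Progenitor genes tied to LMO2 differed between the groups, most of them upward. Hhex, a homeobox factor of blood and liver progenitors, had 11.25, 11.85 and 11.51 on the labelled transgenic arrays, against 8.13, 7.68 and 8.29 on the wild-type arrays. It rose by 3.50 ± 0.25 (limma, adjusted p = 0.0015). The 3 labelled transgenic values spread over less than 1 log2 unit.

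Lyl1, which encodes a helix-loop-helix protein that binds DNA beside LMO2, had 9.63, 11.34 and 9.82 on the labelled transgenic arrays, against 6.80, 6.52 and 6.67 on the wild-type arrays. It rose by 3.60 ± 0.44 (limma, adjusted p = 0.00891), with array 2 well above the other labelled transgenic arrays. The call was lost in 6 of 18 alternative settings, among them when any 1 wild-type array was left out (limma, adjusted p 0.0517 to 0.0643). The term for Xist signal, which leaves labelled transgenic array 3 alone, was another. Nfe2, a leucine zipper factor of megakaryocytes and erythroid cells, had 12.32, 12.86 and 11.82 on the labelled transgenic arrays, against 9.19 or less on all 3 wild-type arrays. Its difference was 3.23 ± 0.28 (limma, adjusted p = 0.00321).

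Igf2bp3, an RNA-binding protein of fetal blood stem cells, had 11.09, 11.41 and 10.47 on the labelled transgenic arrays, against 5.37, 6.14 and 6.17 on the wild-type arrays. It rose by 5.10 ± 0.33 (limma, adjusted p = 0.00114), and its other 4 tested probes gave 4.97, 3.65, 2.07 and 0.20. Hoxa7, a homeobox gene of early blood progenitors, went the opposite way. It had 4.79, 4.56 and 4.84 on the labelled transgenic arrays, none of them detected, against 8.38, 9.31 and 8.62 on the wild-type arrays. Hoxa7 was therefore at least 13.2-fold lower in labelled transgenic thymus (limma, adjusted p = 0.00122). Hhex, Nfe2, Igf2bp3 and Hoxa7 kept their call in all 18 alternative settings tried.

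Of the 5 marker genes Hhex, Lyl1, Igf2bp3 and Hoxa7 matched the promoter table by symbol and Nfe2 did not, and the 4 promoters are shown because their genes changed and LYL1 binds E-boxes with E proteins. They are RefSeq windows of 250 bases before to 50 after the gene's start in GRCm38.p6, with CANNTG E-boxes in capitals. Hhex is at chr19:37434591-37434890 on the plus strand, Lyl1 at chr8:84701207-84701506 on the plus strand, Igf2bp3 at chr6:49214905-49215204 on the minus strand and Hoxa7 at chr6:52218524-52218823 on the minus strand.
Hhex: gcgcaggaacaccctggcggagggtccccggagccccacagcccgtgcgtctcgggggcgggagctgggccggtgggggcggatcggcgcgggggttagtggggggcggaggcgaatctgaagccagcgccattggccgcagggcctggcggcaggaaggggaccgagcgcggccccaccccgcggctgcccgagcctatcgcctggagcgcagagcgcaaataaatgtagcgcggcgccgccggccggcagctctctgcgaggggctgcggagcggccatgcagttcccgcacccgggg
Lyl1: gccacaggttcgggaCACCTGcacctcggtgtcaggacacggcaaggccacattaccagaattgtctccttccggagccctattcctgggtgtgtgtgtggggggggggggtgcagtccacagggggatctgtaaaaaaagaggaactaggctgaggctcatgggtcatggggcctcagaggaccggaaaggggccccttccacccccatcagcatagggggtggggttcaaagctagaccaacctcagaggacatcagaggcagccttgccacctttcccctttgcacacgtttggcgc
Igf2bp3: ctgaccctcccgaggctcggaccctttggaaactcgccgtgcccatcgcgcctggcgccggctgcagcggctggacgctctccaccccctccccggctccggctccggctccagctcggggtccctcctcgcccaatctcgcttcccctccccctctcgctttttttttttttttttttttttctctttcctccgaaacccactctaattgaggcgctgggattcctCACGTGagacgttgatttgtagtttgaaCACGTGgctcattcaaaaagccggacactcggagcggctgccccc
Hoxa7: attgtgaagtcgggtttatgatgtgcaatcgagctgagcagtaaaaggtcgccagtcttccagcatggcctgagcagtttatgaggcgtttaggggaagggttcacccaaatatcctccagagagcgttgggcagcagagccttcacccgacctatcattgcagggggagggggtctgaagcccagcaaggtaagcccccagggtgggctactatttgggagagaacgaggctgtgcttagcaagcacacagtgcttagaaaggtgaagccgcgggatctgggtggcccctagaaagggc
The Lyl1 window held 1 E-box and the Igf2bp3 window held 2, while the windows of Hhex and Hoxa7 held 0. None of the 4 held the GATA letters AGATAA or TTATCT.

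Both motifs were searched on both strands of all windows. A CANNTG E-box stood in 67.7% of the 133 risen genes with a window and 75.6% of the 135 fallen genes, against 63.0% of the 7841 tested genes with a window and 72.1% of all 27025 windows. The GATA letters stood in 8.27% of risen and 12.6% of fallen genes, against 6.30% of tested genes and 11.4% of all windows. These shares are descriptions of the letters in a 300-base window, with no test.

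The list of progenitor regulators and surface genes had 7 members higher (46.7%) and 4 lower (26.7%) among the 15 measured of 28 listed. Of all genes 1.79% were called each way, and the median difference of the list was 1.95. These counts include the markers Hhex, Lyl1, Nfe2, Igf2bp3 and Hoxa7 described above, so they are not separate evidence. Hoxa5 and Hoxa7, among the lower members, passed the detection filter through the wild-type arrays alone. The risen members besides Hhex, Lyl1, Nfe2 and Igf2bp3 were Cpa3, Cd93 and F2r. Cpa3, a carboxypeptidase of mast cells and early progenitors, had 13.77, 14.28 and 13.76 on the labelled transgenic arrays, against 10.57, 10.62 and 10.20 on the wild-type arrays, a difference of 3.48 ± 0.23 (limma, adjusted p = 0.00122). Cd93, a C-type lectin-like surface protein of early progenitors, rose by 3.44 ± 0.29 (limma, adjusted p = 0.00293). F2r, the thrombin receptor, rose by 2.64 ± 0.31 (limma, adjusted p = 0.00748).

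Hoxa5 fell beside its cluster neighbour Hoxa7. It was undetected on all labelled transgenic arrays and detected on all wild-type arrays, and was at least 3.30-fold lower (limma, adjusted p = 0.00408). Cd44, the hyaluronan receptor of early thymocytes, fell by 1.34 (limma, adjusted p = 0.0352). The receptor tyrosine kinase gene Kit had 11.74, 12.84 and 10.49 on the labelled transgenic arrays, against 10.29, 9.32 and 9.60 on the wild-type arrays. By this probe the groups did not overlap, but the difference of 1.95 ± 0.58 was not called (limma, adjusted p = 0.166). A second tested Kit probe gave a difference of 0.79, with overlapping groups. It had 8.25, 4.52 and 7.22 on the labelled transgenic arrays, against 6.05, 6.21 and 5.34 on the wild-type arrays. The progenitor list thus held changes in both directions, with Hoxa5 and Hoxa7 opposite to Hhex and Lyl1.

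With any 1 array left out, 5 to 8 members of the progenitor list were called higher and 2 to 5 lower. Some of its genes also mark other blood cells. The mast cell list had 1 of 3 measured members called, Cpa3 (33.3%, against 3.57% of all genes). All 3 were higher at an unadjusted p under 0.05 (limma). Its defining genes Fcer1a and Ms4a2 were undetected but for Fcer1a on 1 labelled transgenic array. The megakaryocyte list had 2 of 6 called (33.3%), F2r and the marker Nfe2, with 3 higher at an unadjusted p under 0.05 (limma). In that list 5 differences were above 0. Itga2b and Ppbp were undetected on all 6 arrays. Gp9 had 5.97, 5.68 and 5.30 on the labelled transgenic arrays, all detected, against 4.78, 4.92 and 5.42 on the wild-type arrays, 1 of them detected. Pf4 was detected on all 3 labelled transgenic arrays (7.33, 5.78 and 5.67) and on 0 wild-type arrays. None of 3 erythroid genes was called by limma, and 1, Hba-a1, was higher at an unadjusted p under 0.05. Hba-a1 had 9.12, 7.93 and 5.50 on the labelled transgenic arrays, against 4.56, 6.21 and 5.03 on the wild-type arrays. Klf1 was undetected throughout. The part of such cells in the progenitor result was not tested.

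The largest increases fell in no single function. Tbx4, a T-box factor of hindlimb and lung, had 11.34, 8.28 and 10.69 on the labelled transgenic arrays, against undetected values of 4.42, 4.49 and 4.87 on the wild-type arrays. It was at least 34.7-fold higher in labelled transgenic thymus (limma, adjusted p = 0.011), and array 2 was some way below the other labelled transgenic arrays. Rpl3l, the muscle paralogue of a ribosomal protein, had 10.15, 10.29 and 11.39 on the labelled transgenic arrays, against 5.44, 5.26 and 5.62 on the wild-type arrays. It was the only called gene among 53 cytoplasmic ribosomal proteins measured.

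Fbln1, a matrix glycoprotein, had 10.05, 10.21 and 10.86 on the labelled transgenic arrays, against 5.92, 5.64 and 5.72 on the wild-type arrays, a rise of 4.61 ± 0.25 (limma, adjusted p = 0.000694). All 4 of its tested probes rose, the others by 4.03, 4.17 and 2.07. Acox2, a peroxisomal oxidase of branched fatty acids and bile acid precursors, rose by 5.06 ± 0.48. Gpr34, a receptor for lysophosphatidylserine, rose by 4.84 ± 0.45, and its second probe gave 4.87. Myh10, a nonmuscle myosin heavy chain, rose by 4.60 ± 0.39.

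The remaining large increases were also of mixed kind. Lcn4, a lipocalin, rose by 4.75 ± 0.55, Olfm5 by 4.71 ± 0.49, and Slc7a8, a neutral amino acid transporter, by 4.12 ± 0.30. Slc40a1, the iron exporter ferroportin, was at least 15.3-fold higher, and Clec4e, a receptor for damaged cells and mycobacterial lipids, at least 13.5-fold higher. Lsmem1 was at least 14.1-fold higher, and the LIM domain protein Lmcd1, undetected on all wild-type arrays, had 7.99, 9.27 and 9.70 on the labelled transgenic arrays. The agouti gene, a, had 9.39, 9.48 and 8.88 on the labelled transgenic arrays, against 5.19, 5.29 and 5.10 on the wild-type arrays. Its second tested probe gave 0.73 and was not called. None of these 15 genes had overlapping groups, as the rule for naming them required. Of the 15, 13 or 14 kept their call without any 1 wild-type array.

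**Figure D3:**
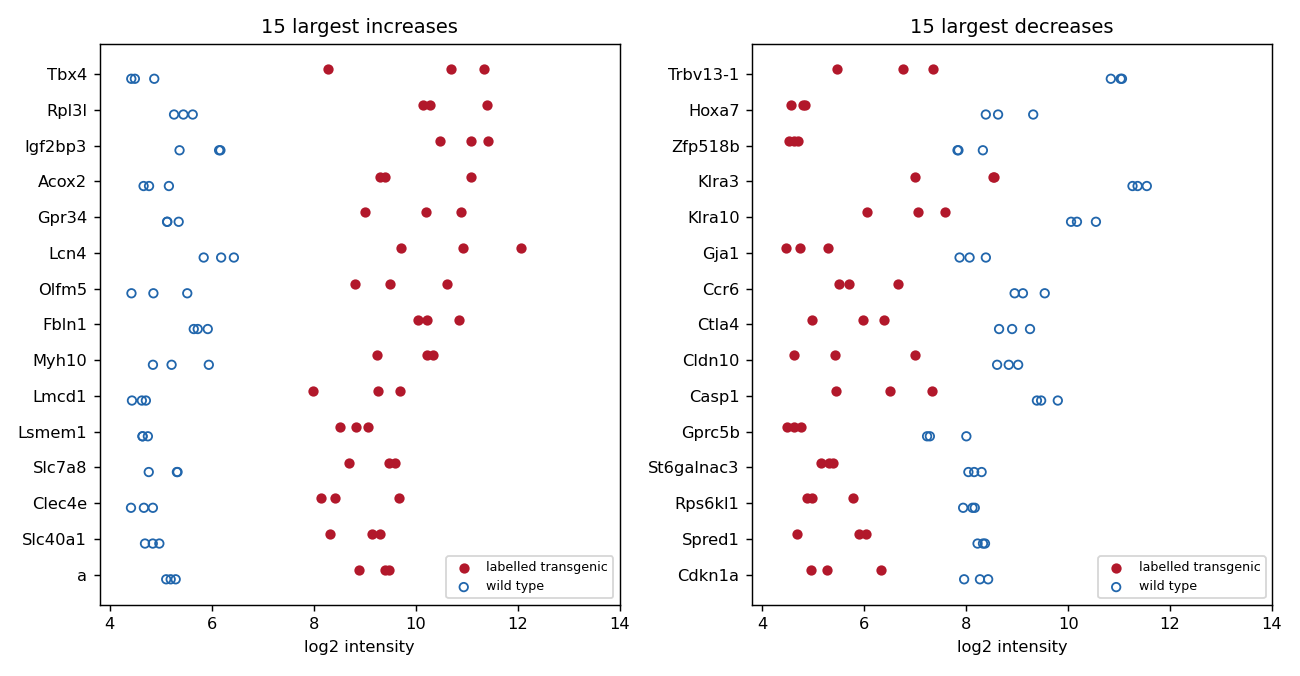
Log2 intensity on each array (horizontal axis) for the 15 largest increases (left) and the 15 largest decreases (right) (called genes whose arrays of the 2 groups are fully separated). Filled red points are labelled transgenic arrays and open blue points wild-type arrays, 3 each. Tbx4 has 1 labelled transgenic array, at 8.28, well below the other 2, and Hoxa7 lies below 5 on all labelled transgenic arrays.

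The largest decreases included several lymphocyte surface genes. Trbv13-1, a variable segment of the T cell receptor beta chain, had 7.34, 6.76 and 5.46 on the labelled transgenic arrays, against 11.03, 11.06 and 10.84 on the wild-type arrays. It fell by 4.45 on the log2 scale (limma, adjusted p = 0.00478) and was the only called one of 5 receptor segments measured. Ctla4, an inhibitory receptor of T cells, had 6.39, 5.97 and 4.98 on the labelled transgenic arrays, against 8.64, 9.25 and 8.90 on the wild-type arrays. Ccr6, a chemokine receptor, had 6.66, 5.70 and 5.51 on the labelled transgenic arrays, against 8.95, 9.11 and 9.54 on the wild-type arrays.

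Casp1, the caspase that matures interleukin 1 beta, fell by 3.12 (limma, adjusted p = 0.0159). Cdkn1a, the cyclin-dependent kinase inhibitor p21, fell by 2.70 (limma, adjusted p = 0.012). Gja1, which encodes connexin 43, fell by 3.28, and the claudin Cldn10 fell too (-3.15 ± 0.56). Spred1, an inhibitor of Ras to MAP kinase signalling (-2.77 ± 0.36), the sialyltransferase St6galnac3 (-2.88 ± 0.18) and Rps6kl1 (-2.87 ± 0.28) fell as well. Zfp518b was at least 7.70-fold lower and Gprc5b, an orphan receptor, at least 5.47-fold lower. In Casp1, Ctla4 and Trbv13-1 labelled transgenic array 1 was the highest of its group and array 3 the lowest. In Zfp518b, Gprc5b and Hoxa7 all 3 labelled transgenic arrays were at background, so how far they agree cannot be read. Of the 15 largest decreases, 8 to 10 kept their call without any 1 wild-type array.

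Decreases were frequent among killer cell receptors. Of 16 measured killer cell lectin-like receptors 7 fell and 0 rose, where 1.79% of all genes fell, with a median difference of -1.72 against 0.00 over all genes, and all 16 differences were below 0. Klra3, an inhibitory receptor for MHC class I, had 8.54 and 8.53 on labelled transgenic arrays 1 and 2 and less on array 3, against 11.36, 11.26 and 11.54 on the wild-type arrays. It fell by 3.37 (limma, adjusted p = 0.00965). Klra10 (-3.36 ± 0.39) and Klra1 (-2.50 ± 0.28) fell with it. Klra genes are close copies of each other, so which of them a probe reads is uncertain.

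The wider list of NK and cytotoxic genes had 8 members lower and 0 higher among 14 measured of 18 listed (57.1% lower, against 1.79% of all genes), with a median of -1.65. Tbx21, the T-bet factor of NK and type 1 T cells, had 5.18, 5.42 and 4.67 on the labelled transgenic arrays, against 7.52, 7.12 and 6.87 on the wild-type arrays. The signalling chain Fcer1g (-2.01 ± 0.29), the receptors Klrd1 (-2.48 ± 0.39) and Klrb1c (-1.91 ± 0.30) and the chemokine Ccl5 (-2.62 ± 0.43) fell. Summed over the 14 genes, linear intensity was 3089 to 5664 on labelled transgenic arrays and 8821 to 10683 on wild-type arrays. Labelled transgenic array 3 was the lowest of its group in 7 of the 8 called genes.

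In these bulk samples fewer cells of a type and less RNA per cell cannot be told apart. The defining NK gene Ncr1 was undetected on all 6 arrays. With any 1 wild-type array left out, 0 of the 14 NK genes were called (limma), and 0 to 2 of the 16 killer cell receptors. In those fits 70 to 102 of all 9578 genes were called. Without any 1 labelled transgenic array, 7 to 9 of the 14 were.

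Genes of MHC class II and dendritic cells also fell, 6 of 15 measured members (40.0%, against 1.79% of all genes), with 0 higher and a median of -1.86. H2-DMb1, a chain of the class II peptide loader, had 7.43, 6.79 and 6.12 on the labelled transgenic arrays, against 8.61, 8.65 and 8.67 on the wild-type arrays. Its partner H2-DMa (-2.59 ± 0.44), the modulator chain H2-Ob (-1.73 ± 0.23), the class II activator Ciita (-2.17 ± 0.39) and Irf8, a factor of dendritic cell development (-1.88 ± 0.35), fell as well. The class II chains H2-Aa (-2.15 ± 0.46, adjusted p = 0.0621) and H2-Ab1 (-1.96 ± 0.48, adjusted p = 0.0979) were not called by limma. Itgax, a defining dendritic cell gene, was undetected on all 6 arrays.

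The summed intensity of those 15 genes was 4345 to 15811 on labelled transgenic arrays and 23704 to 28691 on wild-type arrays. In H2-DMa, H2-DMb1 and Ciita labelled transgenic array 1 lay nearest to the wild-type arrays. Labelled transgenic array 2 lay nearest in 3 of the 6 called genes, among them H2-Ob and Irf8. Without labelled transgenic array 3 the count of class II decreases was 2 of 15, without 1 of the wild-type arrays it was 0 or 1, and without the detection filter it was 1 (limma). Of 9 B cell genes 0 were called by limma, where 3.57% of all genes were, so the list is too short for that to be a result. At an unadjusted p under 0.05 (limma) 3 of them were lower. Of 12 macrophage and granulocyte genes 2 fell (16.7%, against 1.79% of all genes). They were the granule peroxidase Mpo (-2.44 ± 0.31) and the pore-forming protein Mpeg1 (-2.15 ± 0.30). Stroma gave 1 decrease in each of 2 short lists, where 1.79% of all genes fell. They were Cldn4 of 4 thymic epithelial genes (25%) and Gja1 of 5 fibroblast and endothelial genes (20%), while Foxn1 and Col1a1 were undetected. Among 16 MHC class I genes H2-K1 (-1.65 ± 0.31) and H2-Q6 (-1.82 ± 0.31) fell (12.5%, against 1.79% of all genes). Probes of such close copies are uncertain.

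**Figure D4:**
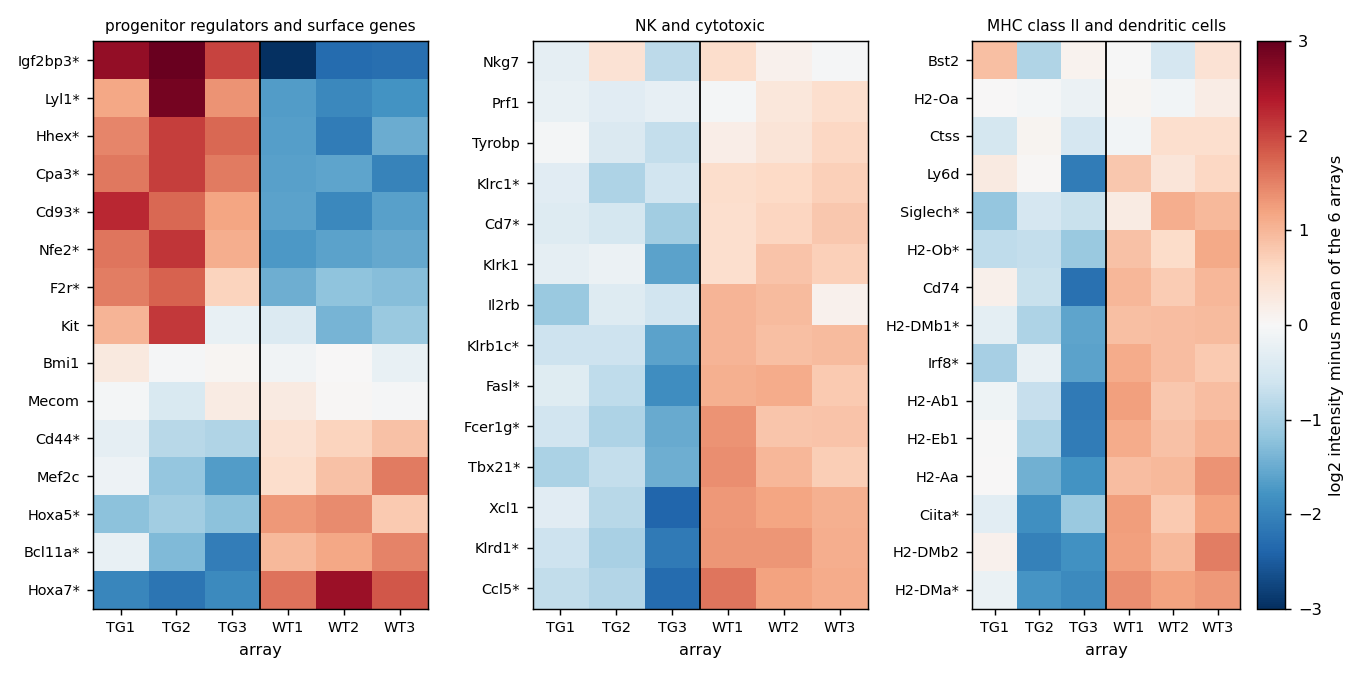
Each measured member (rows, * for called genes) of 3 gene lists on each of the 6 arrays (columns, labelled transgenic TG1 to TG3 left of wild-type WT1 to WT3). Colour is log2 intensity minus the mean of the 6 arrays, with the scale ending at 3 log2 units either way. The progenitor list holds 7 genes higher and 4 lower in labelled transgenic thymus, and the NK and MHC class II lists hold decreases alone, often deepest on TG3.

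Chemokines and their receptors showed 5 decreases and 0 increases among 18 measured members (27.8% lower, against 1.79% of all genes). Besides Ccr6 and Ccl5 they were Ccr8 (-1.52 ± 0.24), Cxcr3 (-2.27 ± 0.42) and Cxcr6, the last named after its values were seen. Of 33 genes with interleukin symbols 2 were lower (6.06%, against 1.79% of all genes), the interleukin 18 receptor chain Il18r1 (-2.46 ± 0.47) and the amino acid oxidase Il4i1 (-2.10 ± 0.34). The second tested probe of Il18r1 gave -0.19 and was not called. With any 1 wild-type array left out, 1 of the 18 chemokine family members was called lower. Among TNF family members the death ligand Tnfsf10 rose by 1.79 and the receptor Tnfrsf25 fell (-1.50 ± 0.30).

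Some genes of T cell development were called. Rag1, the recombinase subunit, had 8.95, 9.49 and 9.10 on the labelled transgenic arrays, against 10.54, 10.90 and 10.73 on the wild-type arrays, a fall of 1.54 (limma, adjusted p = 0.0145). Ptcra, the pre-T cell receptor alpha chain, had 4.93, 6.49 and 6.27 on the labelled transgenic arrays, against 8.60, 8.10 and 8.29 on the wild-type arrays. It fell by 2.43 (limma, adjusted p = 0.0297). With Deptor, an inhibitor of mTOR that rose by 2.16, these were the 3 called members of 15 in the list of commitment and pre-receptor genes. That was 20% of the list, against 3.57% of all genes. Over 18 alternative settings Rag1 lost its call in 7, Ptcra in 8 and Deptor in 10.

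Around LMO2 itself, 2 of 15 measured genes of its complex and of the E protein network were called (13.3%, against 3.57% of all genes). They were Lyl1 upward and Id3, an inhibitor of E proteins, downward (-1.51 ± 0.29). Lyl1 is a marker described above, so this share is not separate evidence. Id3 lost its call in 12 of 18 alternative settings (adjusted p up to 0.342). Of 15 double-positive and mature T cell genes, each read by its brightest probe, 1 was called (6.67%, against 3.57% of all genes), Ets2 (-1.23 ± 0.23). It lost the call in 11 of 18 alternative settings. Cd8b1 counts here as not called, although its 2 dimmer probes were called lower, as given above. Of 15 receptor signalling genes 0 were called by limma, where 3.57% of all genes were, and 2 were lower at an unadjusted p under 0.05. Cd28, the co-stimulatory receptor, stood at -2.31 ± 0.49 and was not called (limma, adjusted p = 0.0599).

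Gamma delta T cell genes were split between the labelled transgenic arrays. Sox13, a factor of gamma delta T cells, rose by 1.78 (limma, adjusted p = 0.00814), and Ccr6, found on a part of these cells, was the other called gene of 11. These were 18.2% of the list, against 3.57% of all genes. The variable segment Trgv5 had 12.74 on labelled transgenic array 1 and 4.83 and 4.48 on arrays 2 and 3, against 7.26, 7.20 and 7.52 on the wild-type arrays. Trgv7 did likewise, high on labelled transgenic array 1 and at 4.75 and 4.84 on arrays 2 and 3, against 7.29, 6.87 and 7.18 on the wild-type arrays. So 1 labelled transgenic array lay above and 2 below all wild-type arrays, and the mean differences of 0.02 and 0.08 show none of it.

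Cd163l1, a scavenger receptor of gamma delta T cells, had 14.12, 13.69 and 7.74 on the labelled transgenic arrays, against 11.14, 10.85 and 11.05 on the wild-type arrays. Here arrays 1 and 2 were high and array 3 was low. Summed over the 11 gamma delta genes, intensity was 8623 to 37002 on labelled transgenic arrays, which encloses the 14873 to 17831 of wild-type arrays.

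Other genes too were set apart on 1 labelled transgenic array, and they are described with no test. On array 1 Chst1, a sulfotransferase, was at 9.31, against 4.76 and 6.40 on arrays 2 and 3, and Bcl2l2, a survival protein of the BCL2 family, was at 5.22, against 7.79 and 8.13. The other tested probes of Bcl2l2 gave mean differences of 0.12 and -0.70, against -1.24 for the probe used. Fn1, the matrix protein fibronectin, and Esrp1, a splicing factor of epithelia, were also high on array 1. On array 2 Umps, a pyrimidine synthesis enzyme, was at 5.82, against 10.02 and 10.23 on arrays 1 and 3, and Rbbp7, a histone chaperone, at 7.29, against 11.57 and 11.58.

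Nme4, Maea, Hnrnpa2b1 and the serine synthesis enzyme Phgdh were low on array 2 as well. On array 3 Ccnd2, cyclin D2, was at 7.97, against 11.67 and 10.76 on arrays 1 and 2, with 11.65, 11.85 and 12.13 on the wild-type arrays. Akr1c12, Igfbp4, Ncf4 and the peptide transporter Slc15a2 were also low on array 3, among the 95 genes that lay more than 1 log2 unit below all other thymus arrays there. In the called genes the arrays did not share the extremes evenly: array 2 was the highest labelled transgenic array in 99 of the 171 risen genes, and array 3 the lowest in 84 of the 171 fallen ones. Over all 9578 genes array 2 was the highest in 4163 and array 3 the lowest in 3340.

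**Figure D5:**
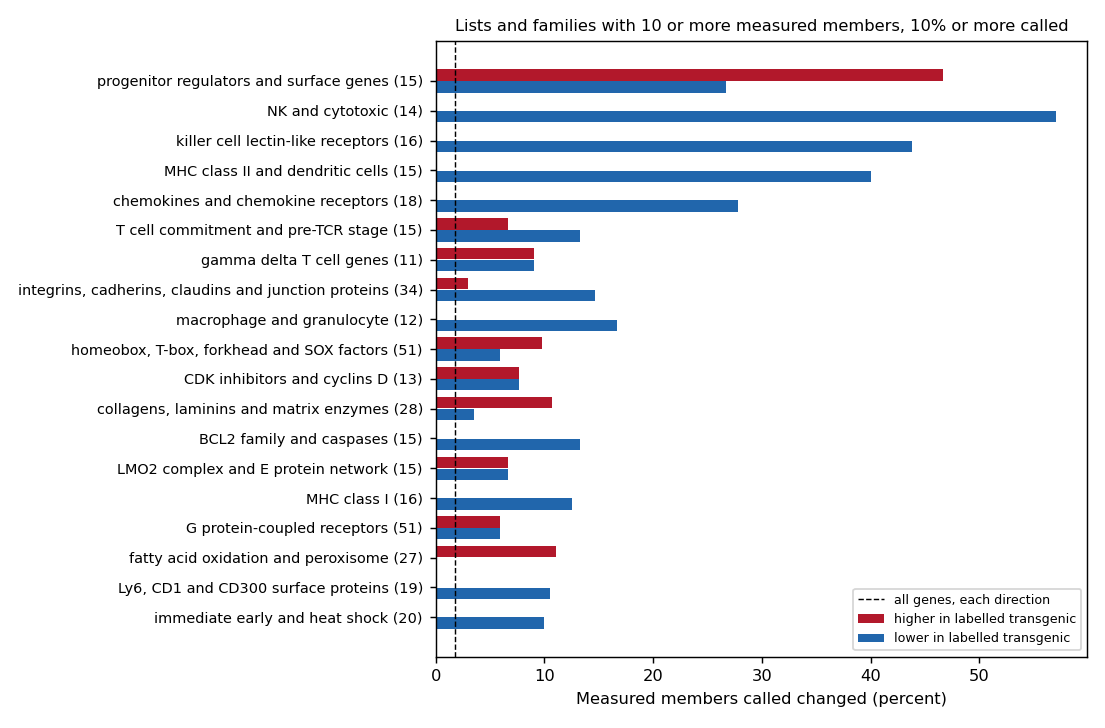
Percent of measured members called higher (red) or lower (blue) in labelled transgenic thymus, for lists and families with at least 10 measured members (number in brackets) of which at least 10% were called, leaving out the 7 families added after the changed genes were seen. The dashed line is the 1.79% of all genes called in each direction. Killer cell receptor, NK, MHC class II and chemokine groups hold decreases alone, and the progenitor list holds both.

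Homeobox, T-box, forkhead and SOX factors changed in both directions. Of 51 measured 5 rose (9.80%) and 3 fell (5.88%), where 1.79% of all genes did so each way, with a median of 0.01. Dlx1, a homeobox factor of forebrain interneurons, had 8.30, 7.52 and 8.64 on the labelled transgenic arrays and was undetected on the wild-type arrays, so it was at least 8.98-fold higher. The helix-loop-helix and leucine zipper family had Lyl1 and Nfe2 higher and Id3 and the AP-1 subunit Fosl2 lower, among 52. That was 7.69% called, against 3.57% of all genes. Hoxa7, Lyl1 and Nfe2 are markers described above, so the shares of these families are not separate evidence. Rxrg, a retinoid X receptor, was at least 4.82-fold higher.

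The immediate early factors Egr2 and Egr3, induced by T cell receptor signals, fell (-2.07 ± 0.26 and -2.67 ± 0.44). They were the 2 called genes of 20 in the list of immediate early and heat shock genes (10%, against 3.57% of all genes). Of 265 zinc finger proteins 2 rose (0.755%) and 5 fell (1.89%), near or below the 1.79% of all genes, and of 134 chromatin regulators 0 were called (limma; 3 were higher and 3 lower at an unadjusted p under 0.05).

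The lists of growth and housekeeping genes held no calls, and with 3.57% of all genes called most of them are too short for that to be a result. For the unadjusted counts below, 1503 of all 9578 genes reached an unadjusted p under 0.05 in either direction (limma). Among 25 cell cycle genes 0 were called (limma), with 2 lower at an unadjusted p under 0.05 and a median of -0.31. Among 20 genes of MYC and ribosome biogenesis 0 were called (limma), with 7 lower at an unadjusted p under 0.05, and all 20 differences were below 0 with a median of -0.41. Counts were 0 called by limma among 72 mitochondrial ribosomal proteins (1 lower at an unadjusted p under 0.05), 43 proteasome genes (0) and 58 histones (16 higher, 1 lower). Of 25 interferon response genes 0 were called (limma; 4 were higher at an unadjusted p under 0.05). For 17 glycolysis genes the median was -0.26 with 0 called by limma and 5 lower at an unadjusted p under 0.05.

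Of 13 measured inhibitors of cyclin-dependent kinases, D cyclins and their partners 1 rose and 1 fell (7.69% each way, against 1.79% of all genes). The median was 0.16, and the other 11 were not called. Cdkn2a, which encodes the INK4A and ARF tumour suppressors, had 6.28, 6.03 and 5.48 on the labelled transgenic arrays, against undetected values of 4.37, 4.56 and 4.49 on the wild-type arrays. It was at least 1.92-fold higher (limma, adjusted p = 0.027), while Cdkn1a fell, as given above. The second tested Cdkn2a probe gave 0.78 and was not called (limma, adjusted p = 0.161). Over 18 alternative settings Cdkn2a lost its call in 8 and Cdkn1a in 6. Of 15 p53 target and DNA damage genes Cdkn1a alone was called (6.67%, against 3.57% of all genes). Of 15 genes of the BCL2 family and caspases Casp1 and Bcl2a1b (-1.82 ± 0.24) fell (13.3%, against 1.79% of all genes).

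Among metabolic genes, a few of lipid oxidation rose. Of 27 genes of fatty acid oxidation and the peroxisome 3 rose (11.1%, against 1.79% of all genes) and 0 fell, with a median of 0.12. They were Acox2, the peroxisome division factor Pex11a (1.52 ± 0.18) and the acyl-CoA thioesterase Acot1 (2.93 ± 0.49). Acot5, a second thioesterase, rose by 1.96 ± 0.23, and the mitochondrial aldehyde dehydrogenase Aldh1b1 by 2.55 ± 0.19. Of 16 cholesterol and fatty acid synthesis genes 0 were called by limma, where 3.57% of all genes were. At an unadjusted p under 0.05 (limma), 1 was higher and 1 lower.

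Transporters changed in both directions. Of 169 solute carriers 6 rose and 6 fell (3.55% each way, against 1.79% of all genes). The risen ones included Slc40a1, Slc7a8, the magnesium transporter Slc41a3 (2.77 ± 0.24) and the organic cation transporter Slc22a4, which was at least 4.24-fold higher. Of 34 integrins, cadherins, claudins and other junction proteins, connexins included, 1 rose, Cldn2, at least 5.87-fold (2.94%, against 1.79% of all genes), and 5 fell (14.7%), among them Gja1, Cldn10 and Cldn4. Of 28 matrix genes 3 rose (10.7%), Fbln1, Lamc1 and Adamts9, and Adamtsl2 fell (3.57%), against 1.79% of all genes each way. Cldn2 and Adamts9 were undetected on all wild-type arrays and Adamtsl2 on all labelled transgenic arrays. These genes thus passed the detection filter through 1 group alone.

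Signalling families were called at shares both below and above the 3.57% of all genes. Of 28 G proteins and their regulators 7.14% were called, and of 38 Notch, Wnt, Hedgehog and TGF beta pathway genes 7.89%. Of 51 G protein-coupled receptors 3 rose and 3 fell (11.8% called), and of 203 small GTPases and their regulators 1 rose and 5 fell (2.96%), among them Rasgrp3, a Ras activator (-1.91 ± 0.28). Of 157 protein kinases 2 rose and 2 fell (2.55%), and the calmodulin-dependent kinases were split, with Camk2b higher by 2.16 and Camk2d lower (-1.36 ± 0.20). Of 98 phosphatases (4.08% called) 3 rose, Dusp2, Ptpn14 and Ppm1e, and the calcineurin subunit Ppp3cc fell by 1.47. The other tested probes of Ppm1e gave 0.58, 0.45 and 1.31, none of them called.

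Some kinds of gene were grouped after the changed genes were seen, so their counts carry no weight and only the values are given. Cell contact and guidance genes among the risen were Ephb4, an ephrin receptor (3.72 ± 0.33), Dlk1, a Notch-like ligand (3.27 ± 0.22), Cxadr (2.48 ± 0.23) and Mdga1. Enzymes of small amines and glutathione were Ddc, the aromatic amino acid decarboxylase (3.08 ± 0.22), Gch1 of tetrahydrobiopterin synthesis (1.58 ± 0.20), the polyamine oxidase Smox (1.77 ± 0.23) and Mgst2 (2.30 ± 0.30). The phospholipid handling genes Atp8a2, Plscr1 and Plscr4 rose, by 3.14, 2.47 and 1.42. Slamf1 rose by 2.10, while its relative Slamf7 fell by 1.70.

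Of the 342 changed genes 174 belonged to at least 1 list or family and 168 to none. Those in none include, chosen after their values were seen, the transferrin receptor Tfr2 (2.28 ± 0.34) and the somatostatin receptor Sstr2 (2.14 ± 0.31), which rose. The vitamin D receptor Vdr (1.41 ± 0.21) and the pseudokinase Trib1 (2.14 ± 0.33) rose as well. The DNA sensor Aim2 (-2.34 ± 0.23), the adaptor Traf1 (-2.50 ± 0.37) and the RNA sensor Tlr7 (-1.45 ± 0.21) fell.

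Changed genes had another changed gene within 5 protein-coding RefSeq genes in 63 of 334 placed cases (18.9%), against 15.4% of all 9396 placed genes. The 38 such pairs included 28 in which both members moved the same way. Among them were Hoxa5 with Hoxa7, Clec4d with Clec4e, Acot1 with Acot5, Plscr1 with Plscr4, and H2-DMa with H2-DMb1. Several of these are close copies of each other, for which probes may share signal.

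Probes without a single gene symbol leaned downward. Of 2977 tested, 89 were called (2.99%), with 22 higher (0.739%) and 67 lower (2.25%). Of all 18382 tested probes 2.99% were called as well, with 1.44% higher and 1.55% lower. Some of the lower probes were undetected on all labelled transgenic arrays and passed the detection filter through the wild-type arrays alone. The probe ILMN_1259713 was undetected on the labelled transgenic arrays (4.29, 4.99 and 4.55), against 10.01, 10.66 and 10.38 on the wild-type arrays, and was at least 39.2-fold lower (limma, adjusted p = 0.000512). ILMN_2483650 was at least 37.4-fold lower (limma, adjusted p = 0.000371), and ILMN_2636663 at least 18.7-fold higher (limma, adjusted p = 0.00814). These probes have no gene name here.

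In the 3 leukaemia cell lines the risen genes were detected more widely than the fallen ones. Of the 171 genes that rose in labelled transgenic thymus, 81 (47.4%) were detected on all 3 lines and 35 (20.5%) on none, while of the 171 that fell, 27 (15.8%) were detected on all 3 and 87 (50.9%) on none. Over all genes tested 75.8% were detected on all 3 lines and 10.6% on none. Fbln1 stood between 10.19 and 11.47 in the lines and Dlx1 at 8.17, 9.30 and 7.65. All tested probes of Nfe2, Klra3 and Hoxa7 were undetected on all 3 lines. The probes used for Cd93 and Cpa3 were undetected there too, but a second Cd93 probe was detected on 2 lines and another Cpa3 probe on 1.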

How the data were processed

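Total RNA of thymus was labelled and read on 1-colour Illumina MouseWG-6 v2.0 arrays. Per the file headers, the authors deposited raw intensity values with their detection p-values, probe by probe. The authors' deposited table of log2 intensities was used as an alternative; the submitters' processing notes name BeadStudio and limma, with settings not given in the sources used here. Its values correlated with those used here at r = 0.999.

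Intensities of all 9 arrays were background-corrected and quantile-normalized with neqc (offset 16) in limma 3.58.1 under R 4.3.3. Probes with a detection p-value under 0.05 on at least 3 of the 6 thymus arrays were fitted on those arrays with lmFit and eBayes, two-sided and without covariates, and p-values were adjusted over all 18382 probes. The script was tested on simulated data.

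In the platform annotation that supplied gene names, 34885 probes carry 1 symbol, 18 several and 10378 none. Of the symbols 34807 matched a RefSeq table (GRCm38.p6) by Entrez ID and 0 changed. Where a gene has several probes, the one with the highest mean was used, and 67 of 126 called genes with more than 1 tested probe had another called in that direction, with 0 in the other direction.

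Genes were named by a rule: Lmo2, the 5 progenitor markers, the 15 largest increases and decreases, up to 4 called members (by p) or 2 uncalled members of each list or family, 6 genes a labelled transgenic array that set it apart, and sex-linked and thymocyte genes. The comparison, the lists, the families and the rule were chosen with earlier results of these data known, and 7 families were added and a few patterns corrected after the changed genes were seen. Depth is not defined for arrays: the number of arrays limits the precision. Median raw intensity was 122.7 to 161.2 and 38.2% to 43.0% of probes were detected. Same-numbered arrays of the 2 groups did not deviate together (correlations of -0.23, -0.22 and 0.22), so the numbers were not taken as pairs. Slide and scan were not analysed here.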

Additional observations from a re-analysis of the deposited data

How the results depend on the processing

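No called gene changed sign under any alternative. Full separation of the groups fixes this in advance for the Xist term and for fits without 1 array. Counts of changed genes stayed within 1.5 times of 342 with normalization on the 6 arrays alone (335), the authors' log2 table (328), an offset of 50 (370), no background correction (339), median scaling (276), no detection filter (283), detection on all 3 arrays of a group (383), 1 fit over all 9 arrays (281), a trended robust prior (430) and the mean of a gene's probes (461). Median scaling moved the median of all genes by 0.14. Array weights gave 534 genes (261 higher, 273 lower) and 861 probes. With a replicate block, on numbers that do not pair the samples, 96 genes (61 higher, 35 lower) and 162 probes were called. The term for Xist signal, chosen after seeing the data, gave 220 genes, 79 of them higher (35.9%), and 352 probes. Leaving out 1 array gave 70 to 401 genes (45 to 183 higher, 25 to 234 lower) and 120 to 648 probes. The counts of 70 to 102 came without a wild-type array, and without a labelled transgenic array they were 320 to 401, from the same number of samples; the cause was not tested. Lmo2 became called, always downward, with an offset of 50 (-1.45), without background correction (-0.99) and with detection on all 3 arrays of a group (-1.86). It was also called in 1 fit over 9 arrays (-1.86), with the trended prior (-1.86), with array weights (-1.87) and without labelled transgenic array 1 (-2.23). The Xist term gave -2.63 for Lmo2, from labelled transgenic array 3 alone. Leaving out 1 array moved Lmo2 between -2.23 and -1.47. Of 138 named called genes 36 kept their call in all 18 settings. Signal near background limits the fold of genes undetected in 1 group.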
